A study of Mus musculus with 24 samples.

Results

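The Cyp3a family of the mouse liver was followed in 8 genes, Cyp3a11, Cyp3a13, Cyp3a16, Cyp3a25, Cyp3a41a, Cyp3a41b, Cyp3a44 and Cyp3a59, chosen by symbol from the 54432 genes of the deposited expression table. A further 3 Cyp3a genes or pseudogenes of that table were not among the chosen genes. Cyp3a11 and Cyp3a13 were lower in the libraries labelled Trib1-KO than in wild type, by 1.87-fold and 1.98-fold. Cyp3a25 was lower in the Cebpa-KO libraries, by 1.48-fold. With both genes floxed, Cyp3a11 and Cyp3a13 were higher than with floxed Trib1 alone, by 1.51-fold and 2.19-fold, and no member differed from wild type at an adjusted p under 0.05.

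Cyp3a enzymes are cytochromes P450 of the endoplasmic reticulum. They are haem proteins that take electrons from cytochrome P450 reductase (Por) and, for many substrates, from cytochrome b5 (Cyb5a), and they oxidise steroids, bile acids and a wide range of drugs. Their genes are classical targets of the nuclear receptors PXR (Nr1i2) and CAR (Nr1i3), which bind DNA together with Rxra, and of the hepatocyte factors Hnf4a and C/EBP. Cyp3a11 is the main Cyp3a enzyme of adult liver and is commonly set beside human CYP3A4, Cyp3a13 and Cyp3a25 are made in liver and intestine, Cyp3a41 and Cyp3a44 are known as female-type liver enzymes, and Cyp3a16 is known from fetal and newborn liver. The sex bias of liver P450 genes depends on the pattern of growth hormone release, read through Stat5b.

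The mice were 24 C57BL/6 males, whose whole-liver RNA was sequenced, in 4 groups of 6 that differ by genotype: Wild Type (WT), Trib1 Flox/Flox (Trib1-KO), Cebpa Flox/Flox (Cebpa-KO) and Trib1;Cebpa Flox/Flox (DKO). Every group, WT included, received AAV-Cre, an adeno-associated virus that carries the recombinase which cuts out floxed DNA. Mice were aged 20 to 21 weeks at injection and were killed after 4 more weeks at midday, on chow and fasted for 4 h. Trib1 encodes a pseudokinase that targets the transcription factor C/EBP alpha, the product of Cebpa, for degradation. The promoter that drove Cre and the share of liver cells it reached are not given in the sources used here. Mice were injected in 2 cohorts of 3 per group, but the columns of the table name the group and not the mouse, so values within a cohort could not be given.

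The 24 libraries held 23385895 to 27190701 normalized counts each. Cebpa fell from 6019 ± 1057 (SD, n = 6) normalized counts in WT to 82.2 ± 17.5 in Cebpa-KO and 82.4 ± 18.1 in DKO, and to 2668 ± 359 in the libraries labelled Trib1-KO. Trib1 went against its label: it was 1224 ± 204 in WT and 4237 ± 358 in the libraries labelled Trib1-KO, with 732 ± 259 in those labelled DKO and 333 ± 158 in Cebpa-KO, as reads summed over the whole gene. Names of comparisons such as Trib1-KO against WT use the labels as they stand. The major urinary protein (Mup) genes took 24.0% of all counts in the libraries labelled Trib1-KO, against 7.02% in WT, 1.75% in Cebpa-KO and 2.79% in DKO. Scaling each library to its total without Mup genes moved the median gene by 0.24 on the log2 scale in Trib1-KO against WT, by -0.28 in DKO against Trib1-KO and by -0.24 in the interaction. It turned the split of higher against lower calls from 2330 against 2168 to 5180 against 987 in Trib1-KO against WT, from 912 against 1034 to 674 against 1207 in Cebpa-KO against WT and from 563 against 643 to 417 against 739 in DKO against WT. The same scaling took the split from 2901 against 3105 to 1452 against 6346 in DKO against Trib1-KO and from 1257 against 1233 to 625 against 2883 in the interaction. The 12 hepatocyte defining markers were all above 0, but their summed level was 1093940 to 1203460 normalized counts in the libraries labelled Trib1-KO and 2412720 to 3301150 in WT. Albumin made up most of that difference. The summed level of 12 macrophage markers was 18896 to 22138 against 9915 to 17988, without overlap.

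The positions of the genes matter for what can be told apart. On GRCm38, 7 of the members lie on chromosome 5 in a cluster of 768009 bases (chr5:145345279-146113287), which also holds Cyp3a57. Cyp3a13 (ENSMUSG00000029727, chr5:137892932-137921619, minus strand) lies 7423659 bases before it. Cyp3a11 (ENSMUSG00000056035) is at chr5:145854426-145879964 on the minus strand, and all 8 members have 13 exons. Cyp3a25 (ENSMUSG00000029630, chr5:145977194-146009618, minus strand) and Cyp3a59 (ENSMUSG00000061292, chr5:146079257-146113287, plus strand) are transcribed away from each other, with 69638 bases between them. Their coding sequences are 97.48% identical, while Cyp3a11 and Cyp3a13 share 76.39%.

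Reads of Cyp3a41a and Cyp3a41b can hardly be assigned to 1 of the pair. Their coding sequences, 1512 bases each in GENCODE M21, are 99.87% identical and differ only by G120A and G336T, counted from the A of the start codon with the base of Cyp3a41a first. The stretch around the difference in exon 2 is shown because reads that cross it are among the few that can separate this pair. Reads with the base of Cyp3a41a may still match another Cyp3a gene. The differing base is in capitals (coding bases 95 to 145, chr5:145717945-145717995 and chr5:145582535-145582585, both on the minus strand).
Cyp3a41a: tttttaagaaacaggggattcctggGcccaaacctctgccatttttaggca
Cyp3a41b: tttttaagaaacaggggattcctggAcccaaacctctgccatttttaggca
Of the 31-base words in the transcripts of Cyp3a41a, 96.06% were also found in Cyp3a41b and 99.85% in any other Cyp3a gene compared. Most of its words that were absent from Cyp3a41b thus occurred in another Cyp3a gene. For Cyp3a41b, 95.87% were found in Cyp3a41a and the same share in any other Cyp3a gene. In other pairs the share was 41.19% for Cyp3a25 in Cyp3a59 and 20.45% for Cyp3a44 in Cyp3a11. Only 0.137% of the words of Cyp3a13 occurred in any other Cyp3a gene compared, so its level was least open to sharing of reads.

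The promoters were read for the letters that the targeted C/EBP factor and other liver factors are known to bind, since Cebpa was deleted in 2 of the groups. RefSeq windows on GRCm38.p6, 250 bases before to 50 after the start, were found for 8 of 8 members. The C/EBP-type letters TTGCNNAA, searched on both strands like all motifs here, occurred in 10.75% of 27025 promoters and in 1 of 8 members, Cyp3a25, 88 to 81 bases before its start. The aligned stretch of Cyp3a59 has the substitution T1G in it, counted from the first capital of Cyp3a25. Both are shown with that stretch in capitals (chr5:146009673-146009732, minus strand, and chr5:146079143-146079202, plus strand).
Cyp3a25: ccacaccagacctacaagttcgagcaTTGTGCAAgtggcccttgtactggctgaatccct
Cyp3a59: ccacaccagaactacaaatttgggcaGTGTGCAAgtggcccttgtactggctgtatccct
The HNF4-type letters CAAAGTCCA occurred in 0.4773% of promoters and in 4 of 8 members, Cyp3a11, Cyp3a16, Cyp3a41a and Cyp3a41b, and the aligned stretch of Cyp3a44 carried C7A. These promoters resemble each other, so the members are not independent occurrences. The windows were 97.33% identical for Cyp3a41a and Cyp3a41b, 92.11% for Cyp3a16 and Cyp3a41a, and 74.84% for Cyp3a11 and Cyp3a16. The 30 bases around the match or aligned stretch in the abundant Cyp3a11 (chr5:145879944-145879973) and in the rare Cyp3a16 (chr5:145469803-145469832) and Cyp3a44 (chr5:145805950-145805979), all on the minus strand, are shown with that stretch in capitals.
Cyp3a11: aagagagtacCAAAGTCCAgtgatgcaaag
Cyp3a16: aagagacgacCAAAGTCCAggtgatgcagg
Cyp3a44: aagatacgacCAAAGTACAggtgatgcagg
The RefSeq start of Cyp3a11 lies inside the gene as GENCODE draws it. The TATA letters TATAAA were found in 5 of 8 members and 14.16% of promoters, and overlapped no other match. Those members were the related Cyp3a11, Cyp3a16, Cyp3a41a and Cyp3a41b with Cyp3a44, whose window was 93.42% identical to that of Cyp3a16. The D-box TTATGNAA (3.519% of promoters) and the STAT-type TTCNNNGAA (8.466%) were found in 0 of 8. A match is a description of letters, and its absence from these windows says nothing about binding.

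In WT liver, Cyp3a11 gave most of the family's RNA. Per kilobase of 1 annotated transcript per gene, its level was 58541 normalized counts per kb, against 10334 for Cyp3a25, 1389 for Cyp3a13 and 919 for Cyp3a59. Those 4 genes were the abundant members. The transcript taken for Cyp3a11 has 2344 bases, while all its annotated exons cover 5093, so its level per kb and its share depend on the length used. Cyp3a44 with 21.9, Cyp3a41a with 17.6, Cyp3a16 with 4.91 and Cyp3a41b with 0.305 normalized counts per kb were rare in these male livers. Cyp3a11 made up 82.0% ± 2.54 (SD, n = 6) of the family's summed level per kb in WT and 74.4% ± 2.17 in the libraries labelled Trib1-KO.

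Trib1-KO against WT asked what changed with floxed Trib1. Cyp3a11, the main drug-oxidising member, had a lowest, median and highest level of 97394, 140688 and 175387 normalized counts in the 6 WT libraries and of 61324, 73720 and 82327 in those labelled Trib1-KO. Every library labelled Trib1-KO lay under every WT library. Cyp3a11 fell by 0.91 ± 0.12 (SE) on the log2(value + 1) scale (95% interval -1.15 to -0.66), with limma adjusted p = 2.1e-06. Cyp3a13 stood at 3195, 4248 and 4594 in WT and at 1755, 1989 and 2523 in the libraries labelled Trib1-KO. Its groups did not overlap either, and it fell by 0.99 ± 0.19 (95% interval -1.37 to -0.60, limma adjusted p = 0.00026). Both falls gave p = 0.00216 in a 2-sided exact permutation test over the 924 arrangements of 6 against 6 libraries, the smallest p it can give. Scaled to totals without Mup genes, Cyp3a11 was still lower by a log2 difference of -0.66 (limma adjusted p = 6.7e-05) and Cyp3a13 by -0.74 (limma adjusted p = 0.0023).

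The other members did not pass the test there. Cyp3a25 was at 17077, 20056 and 24669 normalized counts in WT and at 16997, 17938 and 19872 in the libraries labelled Trib1-KO, which overlapped. Its log2 difference was -0.18 ± 0.12 (95% interval -0.43 to 0.07, limma adjusted p = 0.33), and was 0.06 without Mup genes and 0.10 after quantile normalization. Cyp3a59 gave -0.19 ± 0.21 (limma adjusted p = 0.58), and 0.05 without Mup genes. Cyp3a16 was at 6.07, 8.07 and 11.4 in WT and at 2.24, 2.90 and 5.78 in the libraries labelled Trib1-KO. These groups did not overlap, but its difference of -1.12 ± 0.41 missed the threshold (limma adjusted p = 0.055). Its exact permutation p, not adjusted, was 0.00216, the same as for Cyp3a11 and Cyp3a13. Single changes of the processing gave it adjusted p values of 0.015 to 0.0999, with 8 of 12 past the threshold. Cyp3a44 (-0.43 ± 0.30, limma adjusted p = 0.34), Cyp3a41a (-0.45 ± 0.60, 0.66) and Cyp3a41b (-0.38 ± 0.65, 0.75) were not called. The exact permutation p of Cyp3a41a, not adjusted, was 0.041. In all, 2 of 8 members were called lower and 0 higher, where 22.7% of the 19810 tested genes were called and 10.9% were called lower, so the count itself is near the background. The groups of 3 of 8 members did not overlap, all lower, where 5.71% of all tested genes did so in that direction. The median log2 difference was -0.44 over the members and 0.0077 over all tested genes. Cyp3a41b passed the filter on low values only through the DKO library H3. In whole liver, fewer cells of a type and less RNA per cell cannot be told apart, and 9 of 12 hepatocyte defining markers were called lower in this comparison (Alb by -2.02), whose part in the falls of Cyp3a11 and Cyp3a13 was not tested.

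**Figure D1:**
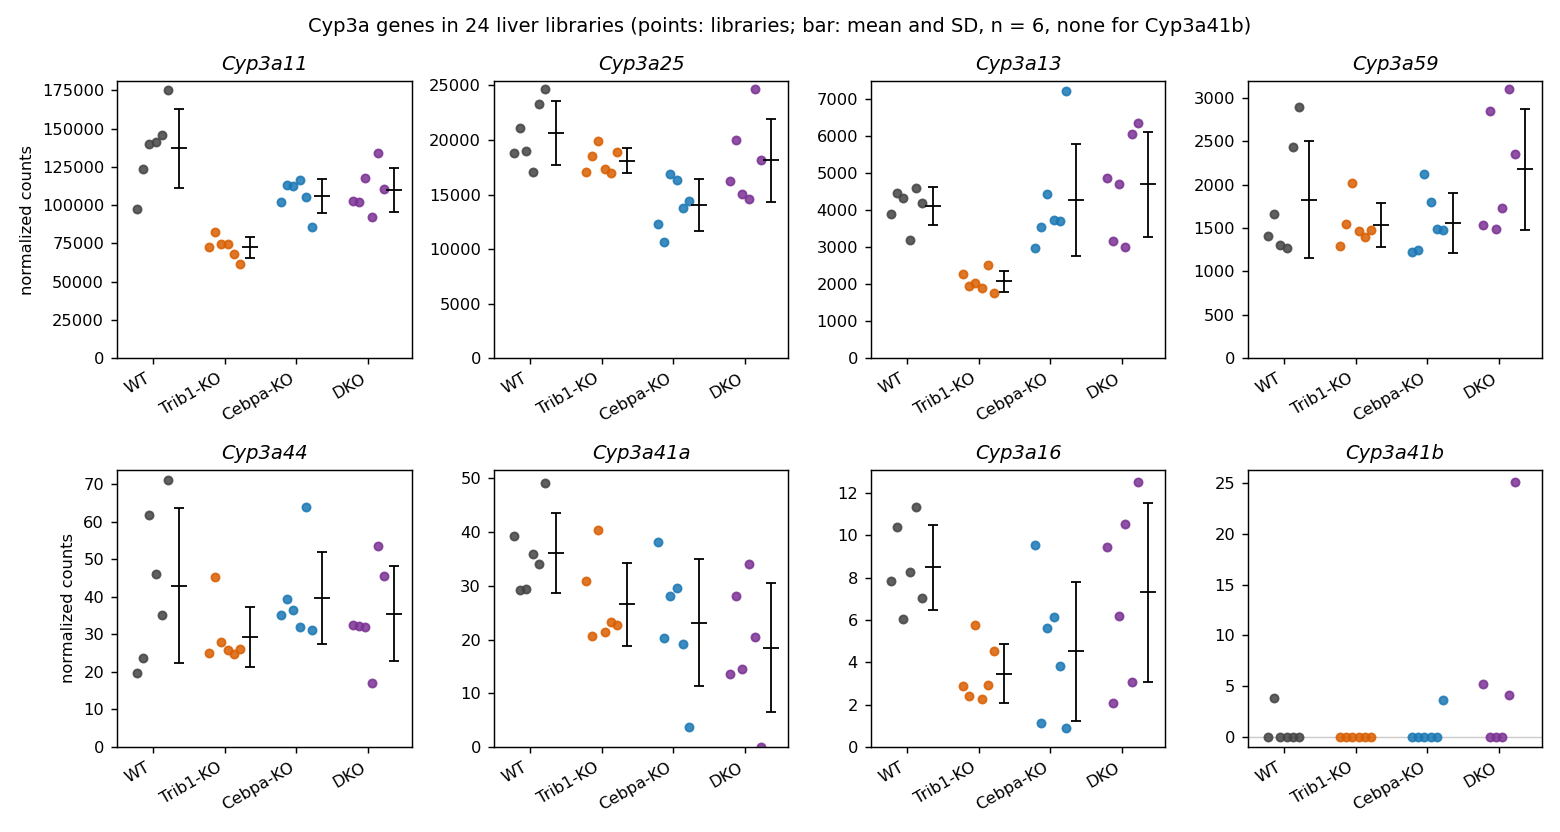
Normalized counts (vertical axes, linear, each gene on its own scale) of the 8 Cyp3a genes in 24 liver libraries by group, with each point a library and bars the mean and SD of 6 libraries, except for Cyp3a41b, which was at 0 in 19 of 24 libraries. For Cyp3a11 and Cyp3a13 the points labelled Trib1-KO lie under all WT points, and for Cyp3a25 the Cebpa-KO points lie under all WT points.

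Cebpa-KO against WT gave a different member. Cyp3a25, an abundant liver form that shares promoter and coding sequence with Cyp3a59, was at 10620, 14064 and 16923 normalized counts in Cebpa-KO. All 6 values lay under the lowest WT library, which had 17077. Cyp3a25 fell by 0.56 ± 0.12 (95% interval -0.82 to -0.31, limma adjusted p = 0.0029), with p = 0.00216 by the exact permutation test. Cyp3a59 was at 1224, 1486 and 2125 in Cebpa-KO and at 1273, 1530 and 2889 in WT. These ranges overlapped almost fully, and its difference was -0.18 ± 0.21 (limma adjusted p = 0.68). Cyp3a11 was at 85781, 108942 and 116644 in Cebpa-KO, overlapping WT, with a difference of -0.36 ± 0.12 (95% interval -0.60 to -0.12) that just missed the threshold (limma adjusted p = 0.053). It passed without the WT library A1, the lowest of WT (-0.45, limma adjusted p = 0.0071), and without the DKO library H2 (limma adjusted p = 0.043). It also passed without Mup genes (-0.40, limma adjusted p = 0.022) and among genes with a mean of at least 10 (limma adjusted p = 0.041), and after quantile normalization it was -0.12 (limma adjusted p = 0.63). Cyp3a13 was at 2976, 3721 and 7204, and its mean log2 level hardly differed from WT (0.0035 ± 0.19, 95% interval -0.38 to 0.39, limma adjusted p = 1.0). The library F3 alone gave the 7204. Without F3 and the DKO library H3 the difference was -0.16. The rare members Cyp3a16 (-1.01, limma adjusted p = 0.14), Cyp3a41a (-0.85, 0.45) and Cyp3a44 (-0.01, 0.99) were not called. By the exact permutation test, not adjusted, p was 0.022 for Cyp3a11, 0.030 for Cyp3a16 and 0.041 for Cyp3a41a. The count was 1 of 8 members, lower, where 9.82% of all tested genes were called and 5.22% were called lower, and the median difference was -0.27 over the members and 0.0089 over all tested genes. Groups did not overlap for Cyp3a25 alone among the members, where 2.65% of all tested genes lay lower without overlap.

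DKO against Trib1-KO asked what changed with floxed Cebpa where Trib1 was already floxed. Cyp3a11 was at 92135, 106398 and 133754 normalized counts in DKO and Cyp3a13 at 3002, 4787 and 6357. For both genes every DKO library lay above every library labelled Trib1-KO, where 8.14% of all tested genes lay higher without overlap. Cyp3a11 rose by 0.60 ± 0.12 (95% interval 0.36 to 0.84, limma adjusted p = 0.00028) and Cyp3a13 by 1.13 ± 0.19 (95% interval 0.75 to 1.51, limma adjusted p = 3.2e-05), each with an exact permutation p of 0.00216. Without Mup genes the values were 0.31 (limma adjusted p = 0.029) for Cyp3a11 and 0.85 (limma adjusted p = 0.00046) for Cyp3a13. Cyp3a25, at 14556, 17234 and 24705 in DKO, differed by -0.02 ± 0.12 (limma adjusted p = 0.93), but without Mup genes it was lower (-0.30, limma adjusted p = 0.042). Cyp3a59 gave 0.46 ± 0.21 (limma adjusted p = 0.10). The called members numbered 2 of 8, both higher, where 30.3% of tested genes were called and 14.6% were called higher. The median difference was 0.53 over the members and -0.023 over all tested genes. This comparison shares the libraries labelled Trib1-KO with the one against WT.

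No member passed the test in DKO against WT, where 6.09% of all tested genes were called. Cyp3a11 differed by -0.31 ± 0.12 (95% interval -0.55 to -0.07, limma adjusted p = 0.14), Cyp3a25 by -0.20 ± 0.12 (95% interval -0.45 to 0.05, 0.42) and Cyp3a13 by 0.14 ± 0.19 (95% interval -0.24 to 0.53, 0.76). Without the WT library A1, Cyp3a11 passed (-0.40, limma adjusted p = 0.026). DKO against Cebpa-KO also called no member, where 0.202% of tested genes were called. There Cyp3a11 gave 0.05 ± 0.12 (95% interval -0.19 to 0.29, limma adjusted p = 0.94), Cyp3a13 0.14 ± 0.19 (95% interval -0.24 to 0.52, 0.88), Cyp3a25 0.36 ± 0.12 (95% interval 0.11 to 0.61, 0.31) and Cyp3a59 0.45 ± 0.21 (0.51). At an unadjusted limma p under 0.05 these were Cyp3a11 and Cyp3a41a in DKO against WT, and Cyp3a25 and Cyp3a59 in DKO against Cebpa-KO. The exact permutation p, not adjusted, was 0.011 for Cyp3a41a in DKO against WT and 0.041 for Cyp3a25 in DKO against Cebpa-KO. The median over the members was -0.20 in DKO against WT and 0.25 in DKO against Cebpa-KO, beside 0.0032 and -0.00062 over all tested genes.

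Whether the difference made by floxed Trib1 depended on Cebpa was tested as an interaction, the difference of DKO from Cebpa-KO minus that of Trib1-KO from WT. It was called, higher, for Cyp3a11 (0.96 ± 0.17, limma adjusted p = 0.00025), Cyp3a13 (1.13 ± 0.26, limma adjusted p = 0.0045), Cyp3a16 (1.77 ± 0.59, limma adjusted p = 0.048) and Cyp3a25 (0.54 ± 0.17, limma adjusted p = 0.039). For Cyp3a11 and Cyp3a13 the call was kept under all alternatives run. For Cyp3a25 it was lost under 5 of 12 single changes of the processing, among them without Mup genes (0.30, limma adjusted p = 0.22) and after quantile normalization (0.22, limma adjusted p = 0.49). For Cyp3a16 it was lost under 4 of 11, among them without the libraries F3 and H3 (1.33, limma adjusted p = 0.14). The 4 of 8 members stand beside 12.6% of all tested genes called and 6.35% called higher, with medians of 0.80 over the members and -0.0091 over all tested genes. The interaction shares libraries with the other comparisons.

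**Figure D2:**
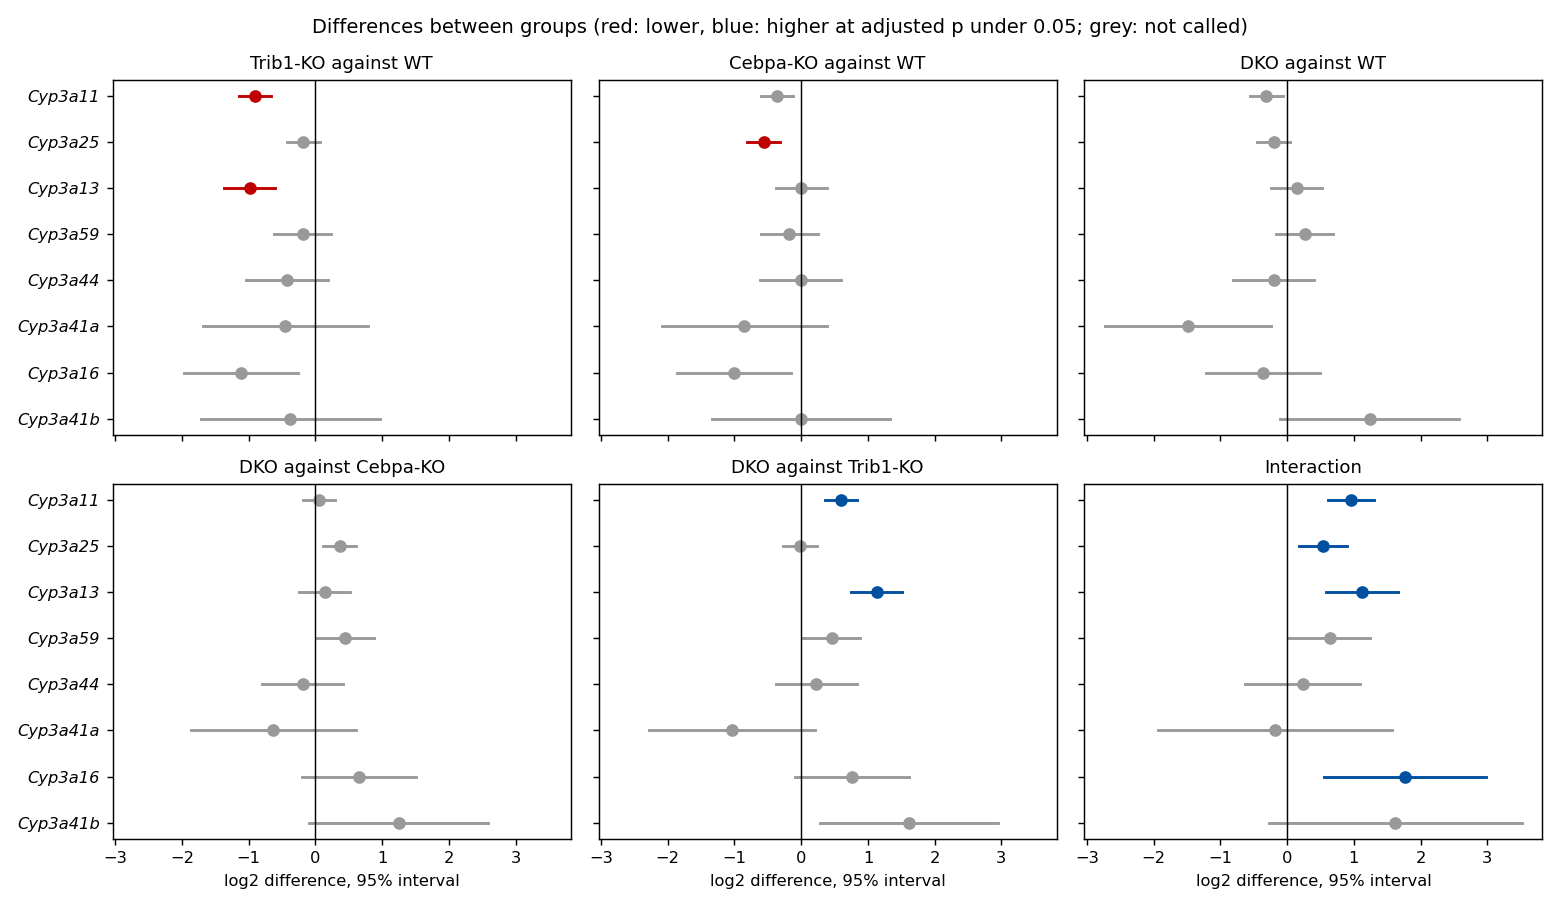
Difference of mean log2(value + 1) (horizontal axis) with its 95% interval for each Cyp3a gene in 6 comparisons of 6 against 6 libraries, the last being the interaction, coloured where the limma adjusted p was under 0.05. Cyp3a11 and Cyp3a13 are lower in Trib1-KO against WT and higher in DKO against Trib1-KO, and Cyp3a25 is lower in Cebpa-KO against WT; its interaction call is lost without Mup genes and after quantile normalization.

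The order of the group means was WT, DKO, Cebpa-KO, Trib1-KO for Cyp3a11 (137219 ± 25781, 109829 ± 14576, 105875 ± 11226 and 72351 ± 7058 normalized counts, SD, n = 6). In that order, DKO and Cebpa-KO overlapped, and WT overlapped DKO, while Trib1-KO was apart from all. For Cyp3a13 the order was DKO, Cebpa-KO, WT, Trib1-KO (4689 ± 1405, 4266 ± 1513, 4105 ± 508 and 2072 ± 280), and only Trib1-KO was apart. For Cyp3a25 it was WT, DKO, Trib1-KO, Cebpa-KO (20667 ± 2914, 18132 ± 3794, 18113 ± 1159 and 14047 ± 2391), with overlap between WT, DKO and Trib1-KO. Cebpa-KO was apart there from WT and from Trib1-KO but overlapped DKO. For Cyp3a59 it was DKO, WT, Cebpa-KO, Trib1-KO (2175 ± 696, 1828 ± 676, 1560 ± 346 and 1534 ± 250), all overlapping.

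Summed over the 8 genes, the family was at 163908 ± 28243 (SD, n = 6) normalized counts in WT, 94129 ± 7290 in the libraries labelled Trib1-KO, 125815 ± 11081 in Cebpa-KO and 134891 ± 18897 in DKO, or 0.659%, 0.366%, 0.516% and 0.548% of all counts. The libraries labelled Trib1-KO, at 83470 to 104406, overlapped none of the other groups, whose lowest library had 108904. Scaled to totals without Mup genes they were at 93628 to 121416 and overlapped WT, which started at 115227, Cebpa-KO (from 106304) and DKO (from 110915). After quantile normalization they were at 85366 to 111618 and overlapped WT, which then started at 106158. The log2 ratio of the means of Trib1-KO and WT was -0.80 as deposited and -0.56 without Mup genes. The sum follows Cyp3a11, and no test was made of it.

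A ratio within each library does not depend on a factor that scales the whole library. Cyp3a25 was 12.1 to 19.3% of Cyp3a11 in WT and 22.5 to 30.8% in the libraries labelled Trib1-KO. It was 9.39 to 16.8% in Cebpa-KO and 12.8 to 19.5% in DKO. The libraries labelled Trib1-KO, with a mean of 25.2% ± 3.08 (SD, n = 6) against 15.4% ± 2.63 in WT, lay above every other library. Cyp3a13 kept a like share of Cyp3a11 in WT (3.08% ± 0.676) and in the libraries labelled Trib1-KO (2.89% ± 0.475), and was at 4.19% ± 2.09 in Cebpa-KO and 4.23% ± 1.00 in DKO.

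**Figure D3:**
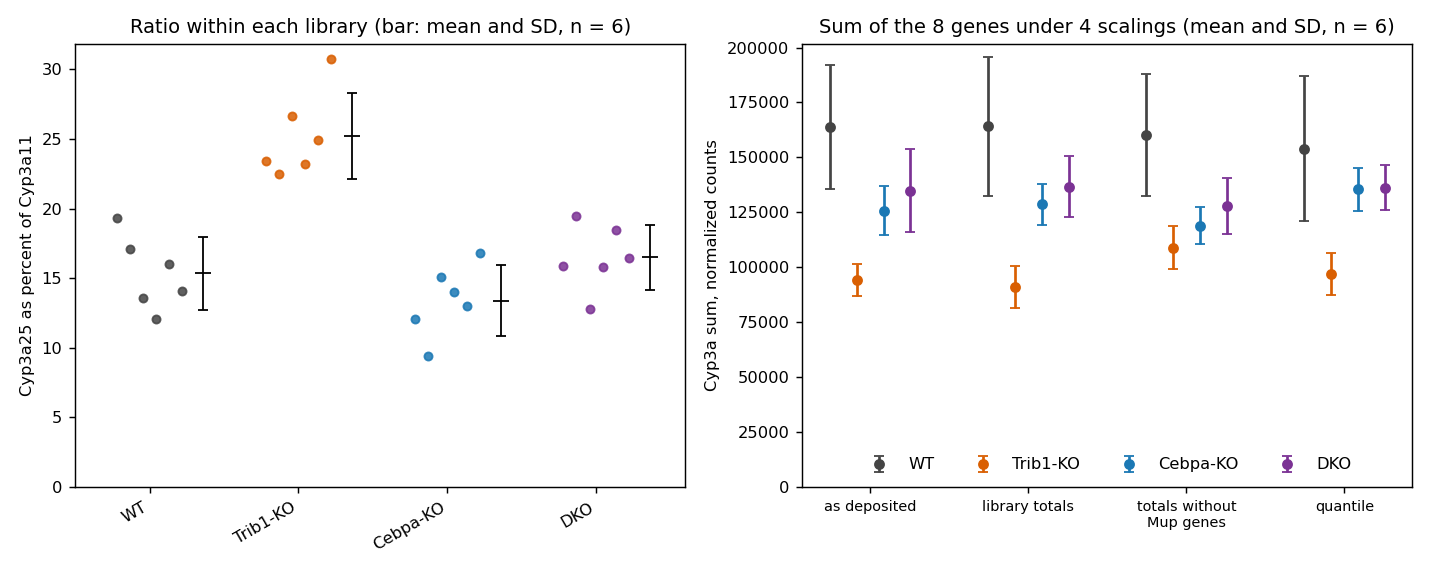
Left, Cyp3a25 as percent of Cyp3a11 in each library with group mean and SD (n = 6); right, the sum of the 8 genes in normalized counts (mean and SD, n = 6) under 4 scalings of the same libraries. The 6 libraries labelled Trib1-KO lie at 22.5 to 30.8%, above all others, and their sum is lowest under each scaling, with a smaller gap to WT without Mup genes.

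The pairs that share sequence were compared across libraries by their deviations from the group means of log2 values, for 28 pairs of members over 24 libraries, with 100000 permutations within groups and Benjamini-Hochberg adjustment over the pairs. Cyp3a25 and Cyp3a59 moved together (Pearson r = 0.89, Spearman rho = 0.91, permutation p = 1e-05, the smallest that these permutations can give, adjusted p = 0.00028 for both). Without the 2 libraries farthest from the median of Cyp3a25, r was 0.91. In level, Cyp3a59 was 6.88 to 11.7% of Cyp3a25 in WT and 9.97 to 12.6% in Cebpa-KO. Of the 31-base words of Cyp3a59, 43.46% also occur in Cyp3a25, so reads of Cyp3a25 assigned to Cyp3a59 would weigh on its values. Their part in this correlation was not tested. Cyp3a11 and Cyp3a44 gave r = 0.74 (permutation p = 0.00044, adjusted p = 0.0062) and rho = 0.56 (permutation p = 0.0097, adjusted p = 0.068), with r = 0.60 without the WT libraries A1 and B3. Cyp3a44 was only 0.0185 to 0.0606% of Cyp3a11, so reads of Cyp3a11 assigned to it would weigh heavily; their part in its values was not tested. Cyp3a11 and Cyp3a25, which share almost no words, gave r = 0.39 (permutation p = 0.084, adjusted p = 0.33, rho = 0.32). Other rare members that share words with Cyp3a11 did not follow it. Cyp3a41a, with 19.75% of its words in Cyp3a11, gave r = 0.13 with it, and Cyp3a16, with 16.12%, gave -0.06. Cyp3a44, with 24.43% of its words in Cyp3a41a, gave r = -0.19 with that gene.

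Cyp3a41b was listed at 0 in 19 of 24 libraries. It was above 0 in the WT library A2 (3.78 normalized counts), the Cebpa-KO library F3 (3.66) and the DKO libraries G1 (5.25), H2 (4.11) and H3 (25.1). In H3, Cyp3a41a was listed at 0, and in F3 it was at its lowest value above 0 in all 24 libraries, 3.66. Across libraries the pair gave r = -0.79 (permutation p = 0.0026, adjusted p = 0.014), but rho was -0.48 (permutation p = 0.0069, adjusted p = 0.068) and r fell to -0.49 without H3 and F3. Added together, the pair was at 36.8 ± 6.89 (SD, n = 6) normalized counts in WT, 26.6 ± 7.72 in the libraries labelled Trib1-KO, 23.7 ± 10.6 in Cebpa-KO and 24.2 ± 6.89 in DKO. The sum of the pair in DKO against WT gave a log2 difference of -0.61, where the single genes had given -1.49 for Cyp3a41a and 1.24 for Cyp3a41b. No call was made for either gene or for the sum against WT. Cyp3a13 was also correlated with both (r = -0.67 with Cyp3a41a and 0.71 with Cyp3a41b, adjusted permutation p = 0.014 each), but by rank the adjusted p was 0.28 and 0.068.

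**Figure D4:**
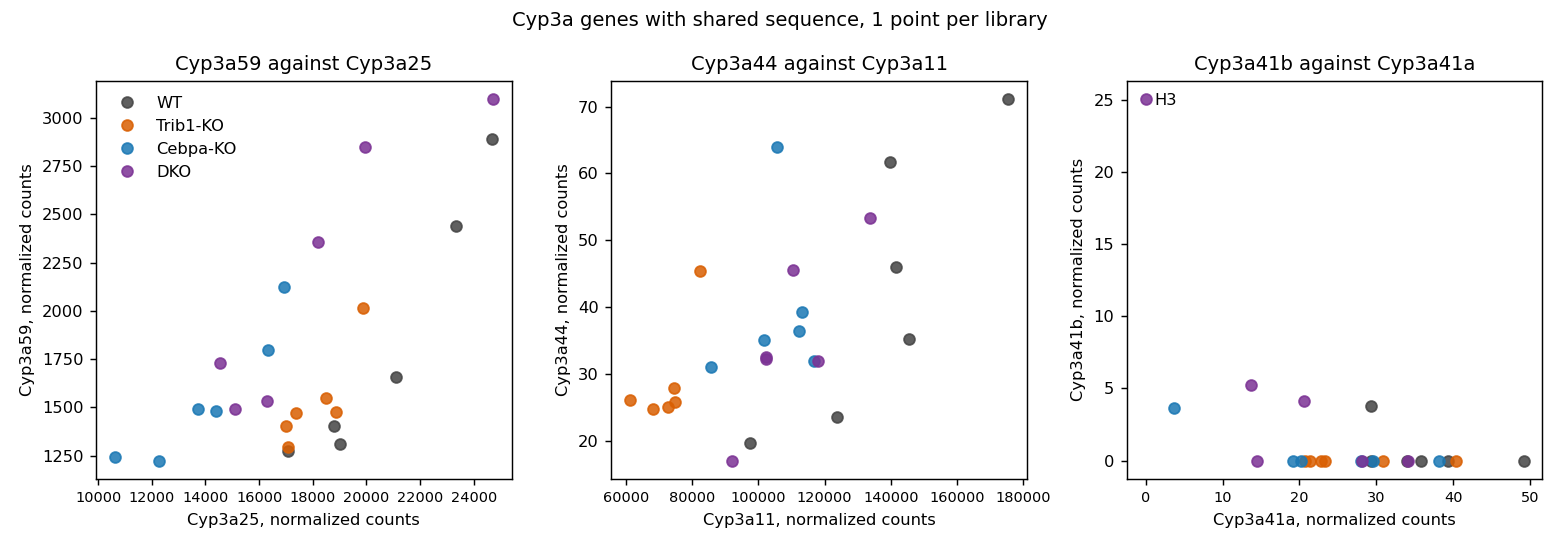
Normalized counts of Cyp3a59 against Cyp3a25, Cyp3a44 against Cyp3a11 and Cyp3a41b against Cyp3a41a, with each point a library coloured by group (linear axes, not all starting at 0). Cyp3a59 follows Cyp3a25 within groups, and the DKO library H3 has 25.1 for Cyp3a41b with Cyp3a41a at 0.

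Cyp3a44, the other female-type member, was at 19.6, 40.6 and 71.1 normalized counts in WT, at 24.8, 26.0 and 45.4 in the libraries labelled Trib1-KO, at 31.1, 35.7 and 64.0 in Cebpa-KO and at 17.0, 32.4 and 53.4 in DKO. All 4 groups overlapped and no comparison was called. Cyp3a16 was at 0.915, 4.71 and 9.55 in Cebpa-KO and at 2.06, 7.82 and 12.5 in DKO, again overlapping WT. In Trib1-KO against WT the SE was 0.60 for Cyp3a41a, beside 0.30 for Cyp3a44 at a like level. The fit takes the spread of a gene from all 4 groups. Cyp3a41a fell to 0 in the DKO library H3 and to 3.66 in the Cebpa-KO library F3.

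The receptors that drive Cyp3a genes were examined next. CAR (Nr1i3) was at 4352, 5490 and 6470 normalized counts in WT and at 1752, 2073 and 2397 in the libraries labelled Trib1-KO. These did not overlap, and Nr1i3 fell by 1.39 ± 0.15 (limma adjusted p = 1.5e-07). In DKO it was at 4032, 6427 and 6737, and it rose by 1.44 ± 0.15 against Trib1-KO (limma adjusted p = 4.3e-08) and gave 0.05 ± 0.15 against WT (limma adjusted p = 0.92). PXR (Nr1i2) was at 1641, 2324 and 2612 in WT and at 2130, 2361 and 2585 in the libraries labelled Trib1-KO, a difference of 0.07 ± 0.11 (limma adjusted p = 0.74) that was called higher without Mup genes (0.31, limma adjusted p = 0.021). Nr1i2 was lower in DKO than in Trib1-KO (-0.46 ± 0.11, limma adjusted p = 0.0020) and than in WT (-0.40 ± 0.11, limma adjusted p = 0.030). Their partner Rxra fell by 0.31 ± 0.08 in Trib1-KO against WT (limma adjusted p = 0.0065), a call that was lost without Mup genes (-0.07, limma adjusted p = 0.63) and after quantile normalization. Hnf4a, whose type of site occurs in 4 member promoters, gave -0.02 ± 0.09 (limma adjusted p = 0.93) there and -0.08 ± 0.09 (0.70) in Cebpa-KO. Of 16 listed xenobiotic receptors, partners and corepressors, 2 were called higher and 4 lower in Trib1-KO against WT, among them Nr1h4, the bile acid receptor FXR, higher by 0.45 and Nr0b2, its repressor target SHP, lower by -0.83. None of the 16 was called in Cebpa-KO against WT (smallest limma adjusted p 0.054, for Nr0b2), and 5 were called higher and 3 lower in DKO against Trib1-KO. Among all tested genes, 22.7% were called in Trib1-KO against WT, 9.82% in Cebpa-KO against WT and 30.3% in DKO against Trib1-KO. Without Mup genes the counts of the 16 turned to 7 higher and 2 lower in Trib1-KO against WT and to 2 higher and 9 lower in DKO against Trib1-KO. In Cebpa-KO against WT, 2 of the 16 were then called lower. All tested genes turned the same way without Mup genes, to 5180 higher and 987 lower in Trib1-KO against WT. They turned to 1452 higher and 6346 lower in DKO against Trib1-KO and to 674 higher and 1207 lower in Cebpa-KO against WT.

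**Figure D5:**
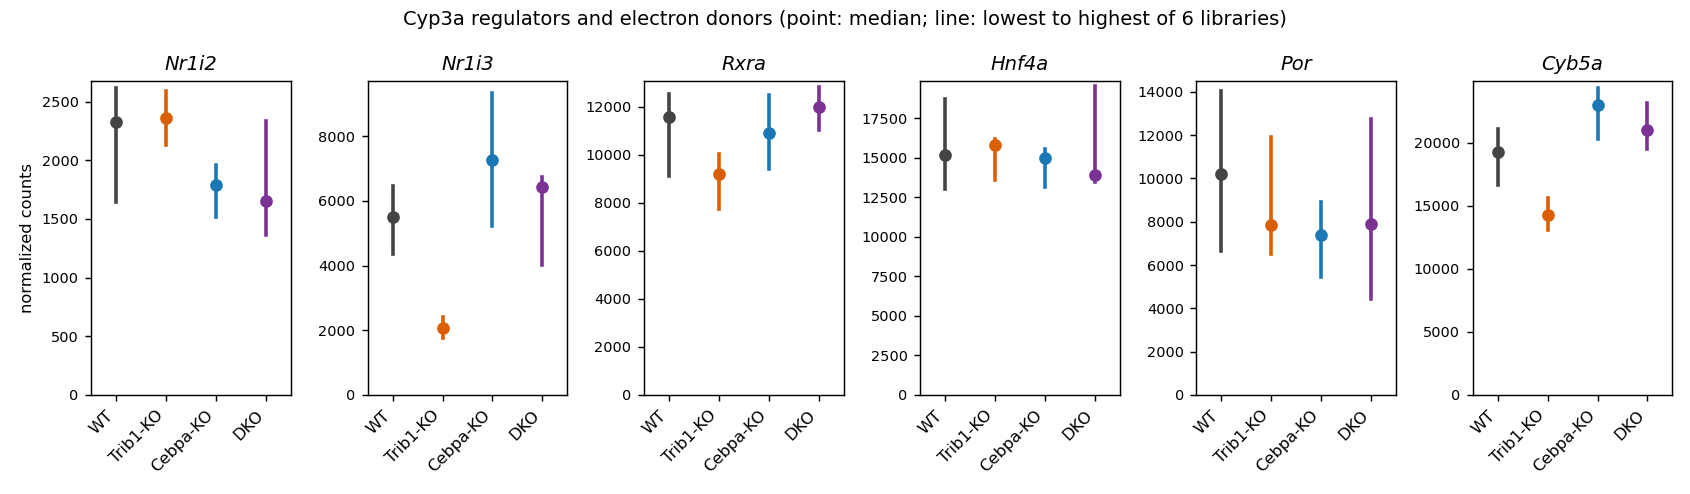
Normalized counts (vertical axes from 0, each gene on its own scale) of 4 regulators of Cyp3a genes and of the electron donors Por and Cyb5a by group, with points the median and lines the lowest to highest of 6 libraries. Nr1i3 is lower in the libraries labelled Trib1-KO, at 1752 to 2397, than in all others, while Nr1i2 and Hnf4a overlap WT there.

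Genes of electron supply and haem synthesis, which serve the P450 enzymes, were lower in part in the libraries labelled Trib1-KO. Por, which feeds the microsomal P450 enzymes, gave -0.27 ± 0.22 in Trib1-KO against WT (limma adjusted p = 0.44). Cyb5a fell by 0.42 ± 0.07 (limma adjusted p = 9.2e-05), a call that was lost without Mup genes (-0.17, limma adjusted p = 0.066), and rose by 0.57 ± 0.07 in DKO against Trib1-KO. Alas1, the rate-limiting enzyme of haem synthesis, was at 3461, 7565 and 18392 in WT and at 2531, 4549 and 8126 in the libraries labelled Trib1-KO, with overlap (-0.88 ± 0.34, limma adjusted p = 0.067). Alas1 rose by 1.46 ± 0.34 in DKO against Trib1-KO (limma adjusted p = 0.0017). Of 17 genes listed, 1 was called higher and 8 lower in Trib1-KO against WT, where 10.9% of all tested genes were called lower. Without Mup genes, 4 were called higher and 5 lower, beside 5180 higher and 987 lower among all tested genes. The last step of haem synthesis, Fech, fell by 0.59 ± 0.05 (limma adjusted p = 6.7e-10), and haem oxygenase Hmox1 rose by 0.69 ± 0.12 (limma adjusted p = 8.4e-05).

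Several other targets of PXR and CAR fell by more than Cyp3a11 did in the libraries labelled Trib1-KO. Cyp2c29 was at 40109, 46236 and 52418 normalized counts in WT and at 2620, 2893 and 3602 in the libraries labelled Trib1-KO, and it fell by 3.96 ± 0.11 (limma adjusted p = 5.0e-18). Cyp2c37 fell by 4.51 ± 0.21 and Cyp2c54 fell by 4.06 ± 0.19. Of 26 listed targets, 6 were called higher and 12 lower in Trib1-KO against WT, with a median of -0.36. Without Mup genes it was 7 higher and 10 lower with a median of -0.11, beside 5180 higher and 987 lower among all tested genes. After quantile normalization the median of the list was -0.14. In Cebpa-KO against WT, 13 were called higher and 4 lower, with a median of 0.42, where Cyp3a25 alone was called among the Cyp3a genes, and lower. In DKO against Trib1-KO, 14 were called higher and 7 lower. Among all tested genes, 22.7% were called in Trib1-KO against WT, 9.82% in Cebpa-KO against WT and 30.3% in DKO against Trib1-KO.

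The female-type Cyp3a genes were set beside other female-biased genes. Of 23 listed female-biased liver genes outside the family, 11 were called higher and 3 lower in Trib1-KO against WT, with a median of 1.19. Among all tested genes, 22.7% were called in that comparison. The summed level of the list was 12409 to 23501 normalized counts in the libraries labelled Trib1-KO and 11277 to 36310 in WT. The sulfotransferase Sult3a1 rose from 0, 1.04 and 2.03 normalized counts in WT to 408, 989 and 1428 in the libraries labelled Trib1-KO (limma adjusted p = 8.0e-16). Over the same libraries Cyp3a41a was at 20.7, 23.0 and 40.4 and Cyp3a44 at 24.8, 26.0 and 45.4, neither called. The difference between the female-type Cyp3a genes and the list was not tested. Of 22 measured male-biased genes, 2 were called higher and 11 lower, among the lower Selenbp2 by -7.71 ± 0.33 and Cyp2d9 by -1.08 ± 0.09. The summed level of this list, which holds Mup7 and Mup20, went the other way. It was 896926 to 1157360 normalized counts in the libraries labelled Trib1-KO and 381899 to 890830 in WT. The growth hormone receptor Ghr fell by 0.54 ± 0.08 (limma adjusted p = 8.2e-06), while Stat5b (0.12 ± 0.09, 0.43), Bcl6 (0.44 ± 0.52, 0.62) and the female-type repressor Cux2 (-0.39 ± 0.65, 0.74) were not called. In Cebpa-KO against WT, Stat5b fell by 0.39 ± 0.09 (limma adjusted p = 0.0069) and Ghr rose by 0.29 ± 0.08 (limma adjusted p = 0.015). Of 9 measured fetal or newborn liver genes, the list that also holds Cyp3a16, 1 was called higher (Ly6d) and 1 lower (Peg3) in Trib1-KO against WT. In Cebpa-KO against WT 0 were called (smallest limma adjusted p 0.13). There 9.82% of all tested genes were called, so for 9 genes that count is near the background.

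Genes of both ends of the liver lobule were called lower in the libraries labelled Trib1-KO: 7 of 17 pericentral genes, the zone where Cyp3a11 is highest, and 8 of 14 periportal genes, with 1 higher in each. Among all tested genes, 10.9% were called lower in Trib1-KO against WT. Without Mup genes the pericentral counts were 6 lower and 3 higher, and the periportal counts 7 lower and 1 higher. All tested genes then gave 987 lower and 5180 higher. In Cebpa-KO the summed cholangiocyte markers were at 4149 to 9566 normalized counts, against 2635 to 3350 in WT, with the highest in F3, the library in which Cyp3a13 was highest. In Cebpa-KO against WT, 9.82% of all tested genes were called and 5.22% were called lower. Of the 12 markers, 2 were called higher (Spp1 and Pkhd1) and 1 lower (Sox9) in that comparison, with a median of -0.24. Their part in the value of Cyp3a13 there was not tested.

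The genes next to the members were counted beside them. Among all tested genes, 22.7% were called in Trib1-KO against WT and 9.82% in Cebpa-KO against WT. Of 11 tested genes in or beside the cluster, 1 was called in Trib1-KO against WT, Cdk8 (-0.27 ± 0.09, limma adjusted p = 0.023), and 2 in Cebpa-KO against WT, Gm42863 inside the cluster (0.55 ± 0.17, limma adjusted p = 0.047) and Zfp655 (-0.35 ± 0.11, limma adjusted p = 0.042). Around Cyp3a13, 2 of 11 were called in Trib1-KO against WT, both lower: Zcwpw1 (-1.27 ± 0.27, limma adjusted p = 0.0010) and Azgp1 (-0.44 ± 0.07, limma adjusted p = 6.3e-05). Zcwpw1 rose by 2.52 ± 0.27 and Azgp1 by 0.53 ± 0.07 in DKO against Trib1-KO, the comparison in which Cyp3a13 rose. There 4 of the 11 genes around Cyp3a13 were called, all higher, and 2 of 11 at the cluster were called higher and 1 lower, beside the 30.3% called among all tested genes.

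Genes most like each member were ranked by Pearson r of log2 values over the 24 libraries, among 12551 genes, as a description. Nearest to Cyp3a13 were the plasma protein genes Cpn2 (0.95), Itih3 (0.95) and Serpina10 (0.95), the transferrin receptor Tfr2 (0.94) and the zinc transporter Slc39a1 (0.93), and with group means removed their r was still 0.81 to 0.88. For Cyp3a11 they were Mrnip (0.88), Crtc2 (0.88), Apoa1 (0.87), Ppp1r3c (0.86) and Fam210b (0.84), with 0.22 to 0.53 once group means were removed. For Cyp3a25 they were Il22ra1 (0.81), Ceacam1 (0.80), Mindy1, Slc3a1 and P3h1 (0.78 each), with 0.58 to 0.71 once group means were removed. For the rare Cyp3a41a they were Acot1 (0.78), Acadl (0.77), Elavl1 (0.77), Ggps1 (0.75) and Tmem147os (0.74), with 0.71 to 0.77. Cyp3a41a was at 0 in the DKO library H3 and at 3.66 in the Cebpa-KO library F3, and the weight of these libraries in its r was not tested. All points share the groups and the scaling of the libraries.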

How the data were processed

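Expression was taken from a table of 54432 genes by 24 libraries, deposited by the authors as estimated counts per gene divided by a size factor per library, a normalized signal. Per the labels, the authors used Salmon, DESeq2 and GRCm38.p6 (named in the submitters' processing notes), and settings and tool versions are not given in the sources used here. This rests on the values: the median log2 ratio to the mean library differed by at most 0.012 between columns, and 65.9 to 70.2% of low values lay within 0.02 of whole multiples of a step, so whole reads were not recovered and the limits from counting could not be given. The plan for raw counts did not apply.

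From the table, log2(value + 1) was fitted with limma 3.58.1 in R 4.3.3 (trend), 24 libraries and 4 group means in 1 model, keeping 19810 genes (mean value 1 or more), and 6 comparisons were read. Adjusted p values are Benjamini-Hochberg over all tested genes, called under 0.05. The fit was also run on simulated counts with few changed genes and no shift like that of the Mup genes. That run therefore does not measure the error rate of the calls in these data. All 8 members were tested. Single members were also compared by 2-sided exact permutation tests. Columns carry the group and 1 of 2 letters with a number, but no mouse. The labels tie neither to a cohort, so no cohort entered the fit and a cohort effect was not tested. Columns of a group correlated at 0.951 to 0.970 over genes and 0 were identical. Symbols came from the table, and 54050 identifiers (99.3%) were found in GENCODE M21, whose transcripts gave lengths and shared 31-base words. Promoters are from RefSeq (GRCm38.p6). No genome or protein sequence was used here.

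The members and lists were chosen with earlier results of these data known. Named were the 8 members, Trib1 and Cebpa, 11 fixed regulators and partners, up to 3 genes per list with the smallest adjusted p, the 5 nearest tested genes on each side of the cluster and of Cyp3a13 with any inside, and the 5 most alike genes. Hmox1 was chosen after its values were seen. Alternatives were other pseudocounts, filters, scalings, weights and groups in the fit, the number in the column names as a block, and leaving out each library; leaving out F3 and H3 was chosen after seeing the data. P values for differences between groups set those differences against the spread between these libraries.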

Additional observations from a re-analysis of the deposited data

Results flagged for a closer look

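Single libraries stood apart from the other 5 of their group in 7 of 32 pairs of member and group. The rule was a gap to the nearest library, relative to the group's range, above Dixon's critical value. Chance gives about 1 in 20 only for normally distributed values, so the count is no measure of an excess. They were Cyp3a13 in the Cebpa-KO library F3 (7204 normalized counts), Cyp3a59 in the library C3 labelled Trib1-KO (2014), Cyp3a44 in C2, also labelled Trib1-KO (45.4), and in the Cebpa-KO library F2 (64.0), and Cyp3a41b in the WT library A2 (3.78), in F3 (3.66) and in the DKO library H3 (25.1). Each was the highest of its group. For Cyp3a41b the other libraries of WT and Cebpa-KO were at 0, so the gap was the whole range there by construction. With all libraries labelled Trib1-KO at 0, the rule could not be applied to Cyp3a41b in that group.

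The interaction of the limma model was called for Cyp3a11 (0.96), Cyp3a13 (1.13), Cyp3a16 (1.77) and Cyp3a25 (0.54). The call of Cyp3a16 was lost under 4 of 11 single changes of the processing and that of Cyp3a25 under 5 of 12. For Cyp3a11 and Cyp3a13, 6 of 6 libraries labelled Trib1-KO lay under every WT library.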

How the results depend on the processing

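The calls of Cyp3a11 and Cyp3a13 in Trib1-KO against WT, DKO against Trib1-KO and the interaction, and of Cyp3a25 in Cebpa-KO against WT, kept their direction and their side of the threshold in every alternative run. Scaling without Mup genes took the log2 ratio of the Cyp3a sum from -0.80 to -0.56 in Trib1-KO against WT and from 0.52 to 0.23 in DKO against Trib1-KO. The signs that turned all belong to differences that were not called. Without Mup genes they were Cyp3a25 (0.064) and Cyp3a59 (0.052) in Trib1-KO against WT, Cyp3a13 (-0.040) in Cebpa-KO against WT and Cyp3a44 (-0.048) in DKO against Trib1-KO. Scaling to library totals gave 0.0030 for Cyp3a41b and 0.024 for Cyp3a44 in Cebpa-KO against WT and 0.053 for Cyp3a25 in DKO against Trib1-KO. Quantile normalization gave 0.10 for Cyp3a25 in Trib1-KO against WT, 0.0018 for Cyp3a41b in Cebpa-KO against WT, -0.045 for Cyp3a11 in DKO against Cebpa-KO and 0.051 for Cyp3a41a in the interaction. Array weights gave -0.029 for Cyp3a13 and 0.10 for Cyp3a44 in Cebpa-KO against WT, and 0.0094 for Cyp3a41a and -0.013 for Cyp3a44 in the interaction, and a pseudocount of 5 gave 0.045 for Cyp3a41a there. With Cyp3a41a and Cyp3a41b added together the values were -0.61 in DKO against WT, 0.13 in DKO against Cebpa-KO, -0.14 in DKO against Trib1-KO and 0.61 in the interaction. Without F3 and H3 they were -0.16 for Cyp3a13 and 0.049 for Cyp3a44 in Cebpa-KO against WT, -0.013 for Cyp3a11 in DKO against Cebpa-KO and 0.14 for Cyp3a41a in the interaction. The cause was not tested. Leaving out 1 library at a time gave -0.45 to 0 for Cyp3a41b in Trib1-KO against WT, and in Cebpa-KO against WT -0.16 to 0.10 for Cyp3a13, -0.38 to 0.37 for Cyp3a41b and -0.20 to 0.16 for Cyp3a44. It gave -0.0094 to 0.10 for Cyp3a11 and -1.06 to 0.11 for Cyp3a41a in DKO against Cebpa-KO, -0.11 to 0.038 for Cyp3a25 in DKO against Trib1-KO and -0.61 to 0.56 for Cyp3a41a in the interaction. The interaction of Cyp3a16 lost its call in 17 of 24 such fits and that of Cyp3a25 in 12 of 24. The 40 genes called in DKO against Cebpa-KO became 25 without a filter, 23 without the intensity trend, 19 with only these 2 groups in the fit and 18 to 63 with 1 library left out. With the replicate number of the columns as a block they became 61. Deviations of libraries with the same number gave a mean r of 0.020 over 72 pairs (range -0.17 to 0.19), beside -0.0098 over 144 pairs with different numbers. As not every pair was over 0.1, the numbers were not taken to pair samples. Among the members the block changed only the call of Cyp3a16 in Trib1-KO against WT (limma adjusted p = 0.046). At a mean of at least 10, Cyp3a16 and Cyp3a41b gave no value.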
